A study of Mus musculus with 11 samples.

Results

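The regions described here are CpG-dense stretches of the mouse autosomes that were almost free of DNA methylation in cells with intact Dnmt3a. The genome was divided into fixed tiles of 1000 bp, and a tile was kept if it held at least 20 C positions, with the 2 strands of a CpG listed apart, each read at least 10 times in all 10 libraries of known genotype. Its level, the percentage of reads with an unconverted C summed over its positions, had to average below 10% over the 5 control libraries. This rule selected 13498 tiles out of 14602 CpG-dense autosomal tiles and out of 100136 tiles tested in all. Because the control levels chose the tiles, their low starting level is a description and not a result. To compare genotypes on tiles that did not choose themselves, the same rule was also applied with the controls of the other cell type alone, which gave 13451 tiles chosen by GMP controls for the LSK comparison and 13533 tiles chosen by LSK controls for the GMP comparison. The tiles were examined for a gain in the knockout. No gain passed the test in either cell type, and every call made among them in LSK was a loss. In GMP none of all 100136 tiles passed in either direction, so the lack of called gains there does not tell gain from loss.

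All libraries came from C57BL/6 mice with a floxed Dnmt3a gene. Knockout animals carried the Mx1-Cre transgene, which is switched on in blood cells and other interferon-responsive cells, and control animals lacked it. Controls and knockouts alike received 5 injections of poly(I:C), the inducer of that transgene, and were sampled at 12 months of age. LSK cells, the lineage-negative Sca1+ cKit+ bone marrow fraction that holds stem and multipotent progenitor cells, gave 3 control libraries (1326, 1330, 1331) and 3 knockout libraries (1327, 1333, 1334). GMP cells, the granulocyte-macrophage progenitors, gave 2 control libraries (346, 349) and 2 knockout libraries (178, 179), and 1 further GMP library, 352, carries conflicting genotype labels and was placed in no group. Enhanced reduced representation bisulfite sequencing (ERRBS) reads CpGs near MspI cut sites, so it samples CpG-rich DNA. The labels do not state how many animals stand behind a library, so p-values measure the spread between libraries.

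Dnmt3a is a methyltransferase that adds methyl groups to cytosines that carry none. CpG islands, the CpG-rich stretches found at most gene starts, are usually kept unmethylated. The histone mark found at active starts, methylated H3K4, hinders binding of Dnmt3a, and TET enzymes oxidise methyl groups that do arrive. Gains of methylation at some CpG islands have been described in Dnmt3a-deficient haematopoietic stem cells, and the comparison of genotypes in these tiles addresses that question.

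Reads summed over C positions, in units of 1e6, came to 157 to 181 per LSK library and 95.4 to 109.7 per assigned GMP library. In the targeted gene, 5 C positions on chromosome 12 between 3903653 and 3904031 (GRCm38) were listed in all 5 controls and in 0 of 3 knockout LSK libraries. GMP knockout 179 listed all 5 of them with a mean of 43 reads and knockout 178 listed 4 with a mean of 26, against 61.2 and 89 reads in the GMP controls, so reads of the targeted segment were still present in the GMP knockouts. Library 352 listed 0 of 5. Among the LSK libraries, knockout 1333 was unlike the rest. It listed 129037 C positions that no other LSK library listed, against 8117 to 26081 in each of the other 5, and its results are given below with and without it. The percentage of unconverted C at mitochondrial positions was 0.956 and 1.09 in the GMP controls, 0.141 and 0.189 in the GMP knockouts, 0.474 to 0.579 in 4 LSK libraries, and 0.988 and 0.980 in LSK knockouts 1327 and 1333. The myeloid genes Mpo, Ctsg and Cebpe were less methylated in GMP controls (47.5%, 60.4% and 51.9%) than in LSK controls (82.6%, 91.2% and 84.6%). Elane and Prtn3 were lower in GMP controls too, and Ms4a3 and Ly6a had no common position.

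Some of these tiles contain a gene start, and RefSeq (GRCm38.p6) gives the sequence before it. The 5 shown here are the 250 bases before starts in tiles that were called lower in knockout LSK cells. They were picked after the values were seen: 4 had the steepest loss over their listed CpGs among promoters with at least 8 of them, and Runx1 was the 1 gene of the lists below whose start tile was called. Capitals mark each CpG whose C was read in all 10 libraries.
Pparg: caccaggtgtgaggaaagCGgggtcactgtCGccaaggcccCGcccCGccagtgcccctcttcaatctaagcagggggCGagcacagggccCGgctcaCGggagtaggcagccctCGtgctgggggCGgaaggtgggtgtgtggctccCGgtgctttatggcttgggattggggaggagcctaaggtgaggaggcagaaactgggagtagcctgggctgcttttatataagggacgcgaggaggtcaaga
Cyp2r1: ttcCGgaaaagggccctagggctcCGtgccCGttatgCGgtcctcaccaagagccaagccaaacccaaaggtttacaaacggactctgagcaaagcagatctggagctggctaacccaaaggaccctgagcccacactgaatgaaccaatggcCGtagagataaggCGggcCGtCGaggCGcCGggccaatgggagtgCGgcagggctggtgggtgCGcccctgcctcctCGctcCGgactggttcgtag
Sema4b: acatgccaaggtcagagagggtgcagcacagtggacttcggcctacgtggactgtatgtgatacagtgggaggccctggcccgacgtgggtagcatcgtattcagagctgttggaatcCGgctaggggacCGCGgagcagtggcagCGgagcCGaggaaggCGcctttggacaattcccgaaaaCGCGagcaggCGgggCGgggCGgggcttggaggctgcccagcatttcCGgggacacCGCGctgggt
Ntn3: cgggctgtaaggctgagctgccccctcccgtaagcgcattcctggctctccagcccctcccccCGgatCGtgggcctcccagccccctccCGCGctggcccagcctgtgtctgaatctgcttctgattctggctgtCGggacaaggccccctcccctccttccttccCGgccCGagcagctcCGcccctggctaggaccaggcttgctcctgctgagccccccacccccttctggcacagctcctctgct
Runx1: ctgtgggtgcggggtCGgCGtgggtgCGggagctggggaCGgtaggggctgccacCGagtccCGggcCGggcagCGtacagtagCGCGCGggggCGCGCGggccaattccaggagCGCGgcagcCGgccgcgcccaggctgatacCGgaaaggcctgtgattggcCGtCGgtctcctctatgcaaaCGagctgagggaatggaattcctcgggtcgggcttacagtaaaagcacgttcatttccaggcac

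Per the RefSeq table, these stretches lie at chr6:115362099-115362348 on the plus strand (Pparg), chr7:114562973-114563222 on the minus strand (Cyp2r1), chr7:80186620-80186869 on the plus strand (Sema4b), chr17:24209388-24209637 on the minus strand (Ntn3) and chr16:92697330-92697579 on the minus strand (Runx1), in GRCm38. Pparg encodes a nuclear receptor of fat cells and macrophages. Cyp2r1 encodes a vitamin D hydroxylase, Sema4b a semaphorin, Ntn3 a netrin, and Runx1 a transcription factor needed for blood stem cells. Listed CpGs numbered 10 of 12 in Pparg, 14 of 16 in Cyp2r1, 14 of 20 in Sema4b, 8 of 11 in Ntn3 and 21 of 27 in Runx1.

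In the Pparg stretch the listed CpGs averaged 18.2%, 17.2% and 17.7% in the 3 LSK controls and 10.9%, 7.68% and 5.94% in the 3 LSK knockouts, so the groups did not overlap. The knockout mean was lower at each of the 10 listed CpGs. The most methylated CpG, 124 bases before the start, averaged 72.7% in LSK controls and 43.3% in LSK knockouts, and the CpG 172 bases before the start averaged 22.1% and 4.5%. In GMP the same stretch stood at 11.5% in both controls and at 9.16% and 17.1% in the knockouts, which lay on either side of the controls. Cyp2r1 also stood apart in LSK and overlapped in GMP, with LSK controls at 20.2%, 20.4% and 15.8%, LSK knockouts at 11.9%, 11.8% and 10.4%, and GMP knockouts at 10.5% and 13.9% beside GMP controls at 12.7% and 9.84%. In Sema4b both cell types were lower: LSK controls at 8.13%, 8.75% and 9.31% against knockouts at 2.74%, 4.64% and 2.89%, and GMP controls at 7.92% and 10.8% against knockouts at 3.04% and 5.26%. Its methylation sat in the part farther from the start. The 3 listed CpGs nearest the start, 19, 10 and 8 bases before it, averaged at most 0.131% in LSK controls, while the CpG 104 bases away averaged 27.5% in LSK controls and 10.99% in LSK knockouts. Ntn3 stood at 8.78%, 9.06% and 6.81% in LSK controls and at 2.10%, 5.88% and 2.11% in LSK knockouts, with 1 CpG, 187 bases before the start, at 30.4% in knockout 1333 and at 4.0% and 2.0% in the other knockouts, against 6.29% to 10.1% in controls. The Runx1 stretch was nearly bare in every library, between 0% and 0.332% on average, with LSK controls at 0.188% to 0.332% and LSK knockouts at 0.0309% to 0.110%. The difference was -0.181 points in this stretch and -1.16 points in its whole tile.

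Starts are common in these tiles. A RefSeq gene start lay in 6918 tiles (51.3%), 6548 of them of protein-coding genes, compared with 21.2% of the 519 CpG-dense tiles at 10 to 50%, 6.84% of the 585 at 50% or more, and 5.63% of the 83452 autosomal tiles with 3 to 19 C positions. The share with a start was 57.9% among the tiles below 0.5% and 26.8% among the 619 tiles at 5 to 10%. A tile held a median of 41 C positions (range 20 to 188), and the tiles together held 653914 positions, 50.6% of those common to all 10 libraries. Read depth was high for single positions, with a median of 132 reads per position in LSK and 76.4 in GMP. Of the tiles, 9099 (67.4%) averaged below 0.5% in controls.

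The 8714 promoters of 300 bases in these tiles had a median of 26 CpGs, an observed-to-expected CpG ratio of 0.843 and 66% G+C, against 7 CpGs, 0.388 and 53% over all 31365 promoters of the table. Motifs were counted on both strands, and overlapping matches of different motifs were allowed. CCGG, the MspI site that ERRBS needs, was present in 94.1% of these promoters and 53.5% of all promoters. The Sp-type box GGGCGG was present in 76.0% and 36.0%, the ETS-type CCGGAAG, which contains CCGG, in 19.1% and 9.0%, the E-box CACGTG in 10.5% and 7.14%, TGACGTCA in 3.33% and 1.83%, the NRF1-type GCGCATGC in 5.47% and 2.69%, and TATAAA in 4.54% and 13.6%. The rule asks for at least 20 read C positions, so CpG-rich promoters are favoured whatever their level. The 165 promoters in CpG-dense tiles at 10% or more had a median of 20 CpGs. CCGG was present in 92.1% of them, GGGCGG in 66.1%, CCGGAAG in 11.5% and CACGTG in 16.4%. TGACGTCA was present in 1.21%, GCGCATGC in 5.45% and TATAAA in 6.06%. Among the 40 promoters in tiles called lower in LSK, 37 held CCGG, 30 held GGGCGG and 3 held TATAAA. In the stretches shown, GGGCGG occurred 2 times in Pparg, once in Sema4b and once in Ntn3, and TATAAA occurred once, in Pparg. The motif list was chosen after the levels were known.

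The level of the average tile was about 1% everywhere. The mean over the 13498 tiles was 0.907%, 0.943% and 0.954% in LSK controls 1326, 1330 and 1331, and 0.797%, 0.925% and 0.708% in LSK knockouts 1327, 1333 and 1334. Library 1333 overlapped the controls and the other 2 knockouts lay below them. In GMP the means were 1.01% and 0.983% in the controls and 0.805% and 0.837% in the knockouts, with no overlap, and 352 stood at 0.773% over the 13313 tiles it covers. The median tile of 1333 was at 0.487%, above the 0.264% to 0.313% of the other 5 LSK libraries. Tiles at 5% or more numbered 516, 548 and 534 in the LSK controls, 333, 312 and 237 in the LSK knockouts, 716 and 742 in the GMP controls, and 463 and 531 in the GMP knockouts. Library 1333 therefore had fewer tiles at the upper end than any control, and a higher median.

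In LSK, the knockout libraries had less methylation than controls in tiles that carried some, and no gain passed the test. Of the 13451 tiles chosen by GMP controls, 150 (1.12%) fell and 0 rose at an adjusted p under 0.05 in a quasi-binomial F test with dispersions moderated by limma and Benjamini-Hochberg adjustment over all 100136 tiles. The background over all tiles was 2.55% lower and 0.021% higher. With a minimum difference of 5 points, 24 of these tiles fell and 0 rose, against 2.34% and 0.019% of all tiles. At an unadjusted p under 0.05, 973 were lower (7.23%, against 11.8% of all tiles) and 256 higher (1.90%, against 1.41%). Few of these tiles could fall by 5 points at all, since only 524 of the 13498 stood at 5% or more in LSK controls. By ranges alone, all 3 knockouts lay above all 3 controls in 635 tiles (4.72%, against 3.33% of all tiles) and below them in 1528 (11.4%, against 15.3%). Over the 13498 tiles these counts were 636 and 1540, and without knockout 1333 they were 933 (6.91%) and 2905 (21.5%), with 2 knockouts against 3 controls. Groups with fewer libraries are more often free of overlap. The share over all tiles was not counted without 1333, so these 2 counts cannot be set against the shares above. The median difference, knockout minus control, was 0.00596 percentage points over these tiles and -0.363 points over all tiles. Its sign rested on 1 library: over the 13498 tiles it was 0.00576, and -0.0426 without 1333. Differences are of levels pooled over the reads of a group. Of the 13498 tiles, 150 fell, and 19 of these by 5 points or more. This set of 150 is not the same as the 150 chosen by GMP controls: 140 of it, and 17 of the 19, were chosen by them. The Esr1 and Fbxl12 tiles named below were not. Without control 1326, 1330 or 1331 or knockout 1334 the 150 became 33, 23, 31 or 34, and without 1330, 1331 or 1334 the 19 became 9, 11 or 12. The LSK libraries also fell into 2 sets by the number of chromosome Y positions listed, 1326 and 1327 with 1470 and 1422, the other 4 with 211 to 229, and the labels give no sex. With a term for this split, chosen after seeing the data, 89 tiles fell, 19 of them by 5 points or more, and 0 rose. Among the other 4 libraries alone 23 fell, 14 by 5 points or more. All 150 tiles were lower in the knockouts within both sets. That had to be so, because in each of the 150 the 3 knockouts lay below the 3 controls. Among CpG-dense tiles with more methylation in controls, those that fell were 102 of 519 at 10 to 50% (19.7%) and 80 of 585 at 50% or more (13.7%), with 0 higher in each.

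**Figure D1:**
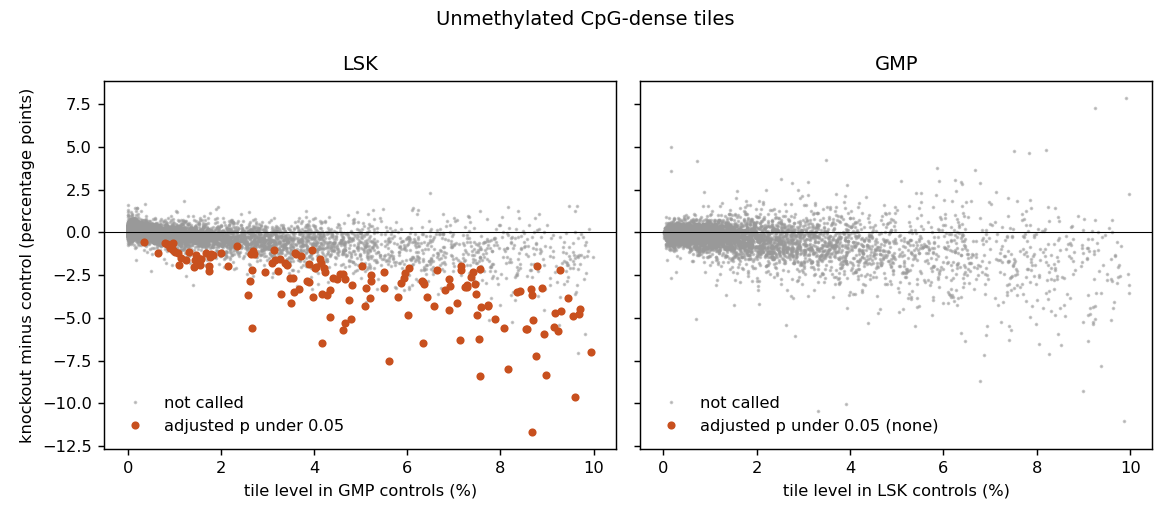
Each point is 1 CpG-dense tile that averaged below 10% in the controls of the other cell type. The x axis is that level in percent and the y axis the difference between knockout and control in percentage points, for LSK (left) and GMP (right). The 150 of the 13451 tiles chosen by GMP controls that had an adjusted p under 0.05 in LSK (orange) all lie below 0, and none was called in GMP.

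The difference in LSK grew with the starting level. Tiles were binned by their mean in the GMP controls, and the LSK libraries were averaged within each bin. In the 675 tiles at 5 to 10%, LSK controls averaged 5.96% ± 0.158 (SD, n = 3) and knockouts 4.49% ± 0.306 (n = 3), a relative difference of -24.7%. The 1338 tiles at 2 to 5% averaged 2.80% ± 0.0718 and 2.17% ± 0.145 (-22.4%), and the 1039 tiles at 1 to 2% averaged 1.36% ± 0.0634 and 1.11% ± 0.123 (-18.7%). In these 3 bins the groups did not overlap. In the 1276 tiles at 0.5 to 1% they did, at 0.702% ± 0.0369 and 0.619% ± 0.116 (-11.8%). In the 9123 tiles below 0.5%, the controls were at 0.246%, 0.245% and 0.265% and the knockouts at 0.258%, 0.436% and 0.226%, so that the mean of the knockouts was higher by 21.9% through library 1333. Without 1333 this difference was -3.76%, still with overlap, and the 4 higher bins ran from -21.1% to -24.2% with no overlap. Among the bins, the share of tiles that fell went from 0.0110% (1 tile) below 0.5% to 10.5% (71 tiles) at 5 to 10%. These are means over tiles within libraries and carry no test. The mitochondrial percentage was high in 1333 and equally high in 1327, which stood at 0.258% in the lowest bin, and its part in these values was not tested.

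In GMP, binned by LSK controls, the knockouts were lower in every bin. The 561 tiles at 5 to 10% averaged 8.09% ± 0.0564 (SD, n = 2) in controls and 6.59% ± 0.303 (n = 2) in knockouts (-18.5%), and the 1318 tiles at 2 to 5% averaged 3.76% ± 0.0557 and 3.07% ± 0.124 (-18.4%). The relative difference was -18.0% at 1 to 2%, -16.2% at 0.5 to 1% and -15.5% below 0.5%, and only the last bin overlapped (controls 0.196% and 0.145%, knockouts 0.148% and 0.140%). The mitochondrial percentage given above was also lower in both GMP knockouts, by more than the group means differed in every bin below 5%, and its part in these values was not tested.

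**Figure D2:**
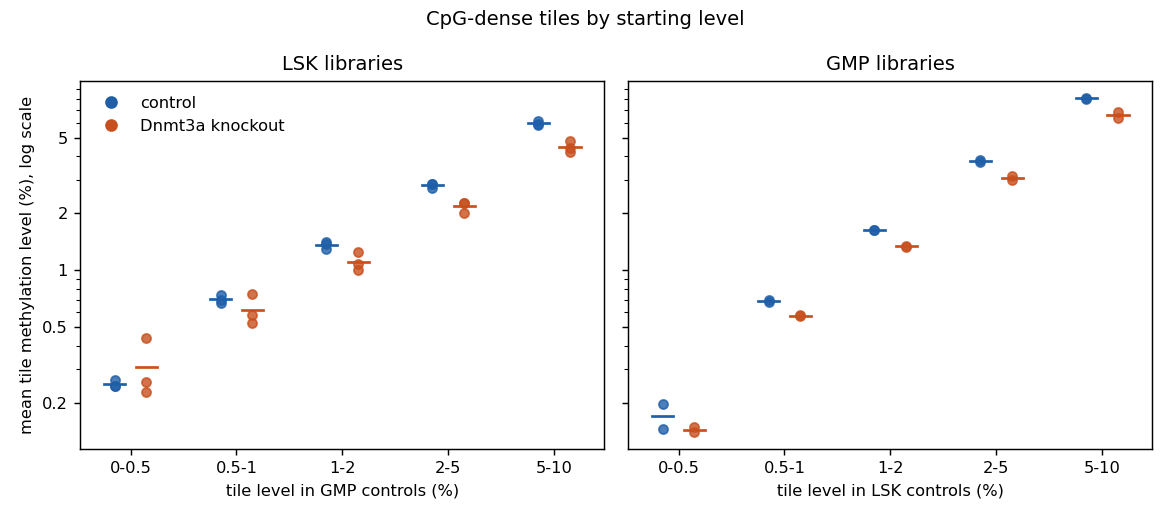
Mean methylation level of CpG-dense tiles (percent, log axis) in bins of their level in the controls of the other cell type, for LSK libraries (left) and GMP libraries (right). Each point is 1 library and each bar a group mean. Knockout means sit below control means except in the lowest LSK bin. Single libraries overlap in the 2 lowest LSK bins, where 1333 is the highest library (0.436% and 0.750%), and in the lowest GMP bin.

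The tiles that fell most in LSK lay mainly inside genes. By the naming rule these were the 8 with the steepest loss among the 19 tiles of the 13498 that fell by 5 points or more. Fam43a fell furthest (chromosome 16, 30601001 to 30602000, 20 C positions). It stood at 10.2%, 9.22% and 7.57% in the controls and at 1.20%, 0.0301% and 0.666% in the knockouts, a fall of 8.36 points with adjusted p = 0.00159 (limma-moderated F test). All 3 knockouts lay well below the lowest control. Ptprs, a receptor-type tyrosine phosphatase gene (chromosome 17, 56470001 to 56471000), went from 10.1%, 9.35% and 12.5% to 3.33%, 1.97% and 2.52% (adjusted p = 0.00264). Gata2, which encodes a transcription factor of stem and progenitor cells (chromosome 6, 88196001 to 88197000, within the gene and the overlapping Gm38708), went from 10.1%, 10.6% and 9.56% to 4.73%, 0.950% and 3.10% (adjusted p = 0.0132). Its knockouts spanned a wider range than its controls, and the call was lost when any 1 control or knockout 1334 was left out (adjusted p up to 0.0951).

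Esr1, the gene of oestrogen receptor alpha (chromosome 10, 4712001 to 4713000), went from 8.72%, 7.37% and 7.46% to 1.14%, 1.79% and 0.450% (adjusted p = 0.00252). Tigd5 (chromosome 15, 75910001 to 75911000), related to transposases, went from 10.5%, 12.6% and 13.0% to 5.72%, 3.53% and 4.12% (adjusted p = 0.00432). Cdk2ap1, a partner of the cell cycle kinase Cdk2 (chromosome 5, 124352001 to 124353000), went from 8.95%, 10.1% and 10.9% to 4.08%, 3.31% and 2.91% (adjusted p = 0.00668), with an adjusted p of 0.0513 without control 1330. In these 3 tiles, as in Fam43a and Ptprs, all knockouts were well below all controls. Phldb1 (chromosome 9, 44733001 to 44734000) went from 10.7%, 6.99% and 6.68% to 2.41%, 0.663% and 1.73% (adjusted p = 0.0159). The tile that holds starts of both the F-box gene Fbxl12 and the ubiquitin-like gene Ubl5 (chromosome 9, 20642001 to 20643000, 51 C positions) went from 10.2%, 6.23% and 10.9% to 3.52%, 2.17% and 2.84% (adjusted p = 0.00976). Leaving out 1 library ended the Phldb1 call in 4 of 6 cases and the Fbxl12 call in 3 of 6.

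GMP values at these tiles differed from gene to gene. GMP controls at Fam43a were at 9.46% and 8.50% and the knockouts at 1.34% and 5.16%. Tigd5 went the other way in GMP, with controls at 5.93% and 5.31% and knockouts at 7.36% and 6.12%, and Phldb1 overlapped (3.06% and 5.28%, then 3.23% and 5.09%). Among the 150 tiles of the 13498 that fell in LSK, the GMP difference was negative in 139, all GMP knockouts lay below all GMP controls in 93, and they lay above them in 1. Over all 13498 tiles the GMP difference was negative in 8003 (59.3%), and the GMP knockouts lay below the controls in 22.7%. That last share rose with level. It was 41.4% of the tiles at 2 to 5% in LSK controls and 48.0% of those at 5 to 10%, the levels nearer to the 150. In all 150, the 3 LSK knockouts lay below the 3 controls. Their median level was 5.14% in LSK controls and 2.12% in LSK knockouts, and 4.66% in GMP controls and 3.27% in GMP knockouts. Knockout 178 was lower there than 179, with medians of 2.81% and 3.56%, beside its fewer reads over the targeted Dnmt3a segment. Whether residual undeleted cells take part in this was not tested.

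The 150 tiles were spread over all 19 autosomes. A gene start lay in 34 of them (22.7%, against 51.3% of all 13498), 96 overlapped a gene without its start, and 20 lay near a gene. Chosen after their values were seen, the start tiles of Pparg (a difference of -6.25 points, adjusted p = 0.00520), Card10 (-5.72 points, adjusted p = 0.0158) and Gfpt2 (-5.57 points, adjusted p = 0.00988) were the other 3 with a start that fell by 5 points or more. At least 1 C position at 20% or more in GMP controls was present in 123 of the 150 tiles (82%) and in 12.8% of the other 13348. The 150 tiles also had a higher level, with a median of 5.14% in LSK controls against 0.283% over the 13498. A start lay in 34.6% of the tiles at 2 to 5% in controls and in 26.8% of those at 5 to 10%. The part of level in the shares with a start or a methylated position was not tested.

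**Figure D3:**
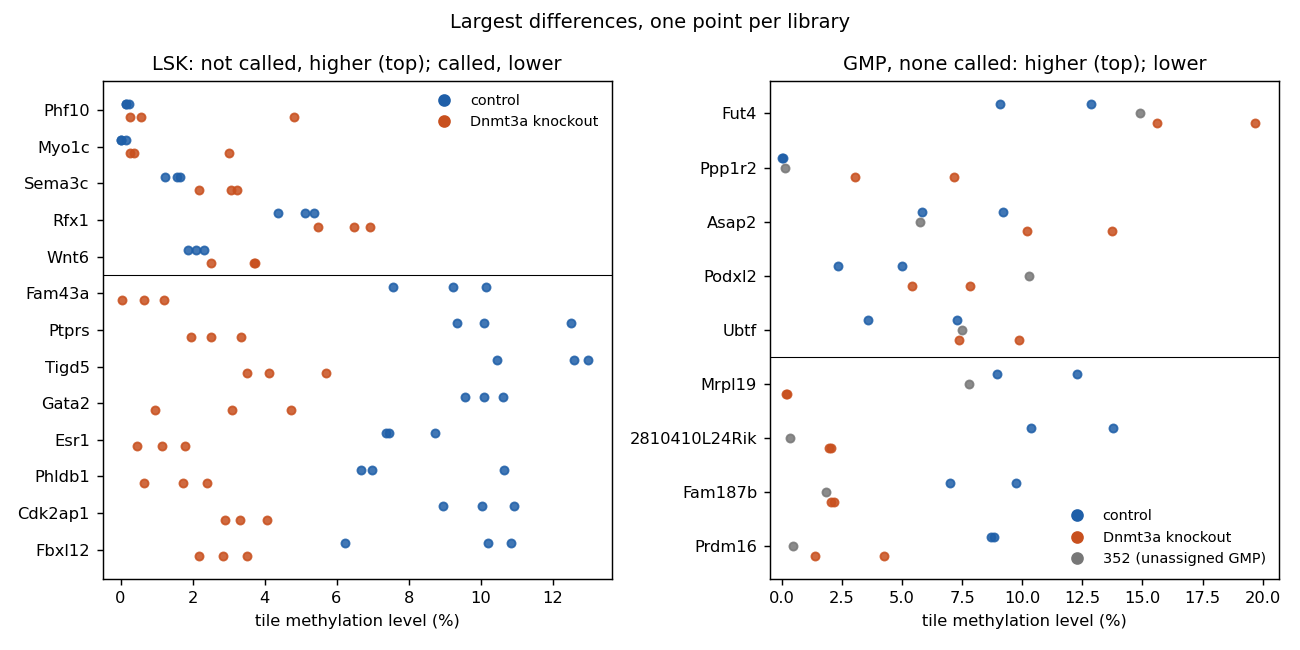
Tile methylation level (percent) of the tiles with the largest differences that overlap a gene, 1 point per library, in LSK (left) and GMP (right). In LSK the 5 upper tiles are higher in the knockouts but not called, and the 8 lower tiles, from Fam43a to Fbxl12, were called. No GMP tile was called, and library 352 is drawn in grey without a group.

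Inside these tiles the LSK groups stood apart at C positions that carried 1% or more in GMP controls. Among positions of the tiles chosen by GMP controls, 86.3% stood below 1% in GMP controls, and at these LSK controls averaged 0.335% ± 0.0104 (SD, n = 3) and LSK knockouts 0.353% ± 0.102. The 58364 positions at 1 to 5% averaged 1.58% ± 0.0304 and 1.31% ± 0.189, and the 26365 positions at 5 to 20% averaged 5.34% ± 0.088 and 3.90% ± 0.228. The 3371 positions at 20 to 50% in GMP controls averaged 22.6% ± 0.325 in LSK controls and 16.1% ± 0.851 in LSK knockouts. The 985 positions at 50% or more averaged 66.2% ± 0.574 and 55.1% ± 1.92. In GMP, grouped by LSK controls, the corresponding values were 30.4% ± 0.159 (n = 2) and 23.8% ± 1.34 for 2600 positions, and 70.8% ± 0.129 and 62.5% ± 1.94 for 981 positions. Controls and knockouts overlapped in the LSK class below 1% and did not overlap in the other classes given.

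Prdm11, a gene of the PR-domain family, shows such a stretch (chromosome 2, 93014001 to 93015000, 51 C positions; chosen after its values were seen). The tile stood at 4.59%, 7.28% and 6.63% in LSK controls and at 0.647%, 0.634% and 0.518% in LSK knockouts (adjusted p = 0.00117, limma-moderated F test), the smallest adjusted p among the 13498 tiles. In 19 positions over 678 bp that reached 5% in some library, the LSK controls averaged 17.2%, 19.5% and 16.3% and the LSK knockouts 1.496%, 1.45% and 1.12%. The GMP tile level was 7.87% and 10.4% in controls and 5.10% and 6.29% in knockouts, and 0.409% in library 352. The stretch was therefore nearly empty in the LSK knockouts and 352, and still methylated in both GMP knockouts. The test of a difference between cell types gave an adjusted p of 0.265 for this tile.

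No tile rose in LSK in the limma-moderated F test, although 7 did, with no minimum difference, when the prior spread was fitted on CpG-dense tiles below 10%, and 1 or 2 when a knockout was left out. The 5 tiles with the largest difference among those where all knockouts lay above all controls are given as not called. Phf10, a subunit gene of a chromatin remodelling complex (chromosome 17, 14961001 to 14962000, start tile), stood at 0.222%, 0.141% and 0.166% in controls and at 0.271%, 4.81% and 0.564% in knockouts (adjusted p = 0.381). Myo1c, a myosin gene, stood at 0.0219%, 0.144% and 0.0230% and at 0.368%, 3.02% and 0.267% (adjusted p = 0.184). In both, 1 library, 1333, makes nearly the whole difference: without it the difference was 0.248 points for Phf10 and 0.260 for Myo1c. Sema3c, a semaphorin gene, stood at 1.23%, 1.66% and 1.58% in controls and 2.17%, 3.07% and 3.23% in knockouts (adjusted p = 0.204). Rfx1 stood at 4.39%, 5.39% and 5.12% and at 6.94%, 5.50% and 6.48%, and Wnt6 at 2.31%, 1.88% and 2.10% and at 2.51%, 3.74% and 3.72% (adjusted p = 0.397 and 0.316). That all 3 knockouts were higher in these tiles follows from how they were picked. The differences of Sema3c, Rfx1 and Wnt6, of 1.18 to 1.40 points, stayed at 0.956 points or more when 1 library was left out. In Rfx1, knockout 1333 at 5.50% lay close to the highest control at 5.39%. Over all 13498 tiles, 50 were higher by 1 point or more in LSK knockouts and 788 lower by as much.

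Gains confined to 1 library were counted with a rule set after the data were seen: at least 3% in that library and below 1% in each of the other 10, over 13313 tiles covered in all 11. Library 1333 had 12 such tiles, GMP control 346 had 2, and LSK control 1331, GMP control 349 and GMP knockout 178 had 1 each. Knockouts 1327, 1334 and 179, controls 1326 and 1330, and 352 had 0. The tiles of 1333 included the start tiles of the splicing factor gene Sf3b6 (5.76%), Phf10 (4.81%), Tmem97 (4.40%), Dnmbp (3.56%) and Lbh (3.26%), each at most 0.975% elsewhere. In Phf10 the excess lay in 9 adjacent C positions over 48 bp at 22.2% to 29.4%, and in Fn1, the fibronectin gene, in 9 positions over 43 bp at 14.0% to 16.1%. Single-library stretches were seen in controls too. In Cyp51, a sterol synthesis gene, 5 positions over 26 bp stood at 13.3% to 14.2% in control 346 and at most 1.94% in the others. The GMP knockout 178 tile, in Vcpkmt, had 15 positions over 134 bp at 10.1% to 30.6%. Whether the extra positions or the mitochondrial percentage of 1333 take part in its count was not tested.

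In GMP, no tile was called in either direction among the 13533 tiles chosen by LSK controls (0% of these and 0% of all tiles, both with and without the minimum of 5 points). The smallest adjusted p of any tile was 0.564 with the limma-moderated F test, in a comparison with 2 residual degrees of freedom. At an unadjusted p under 0.05, 189 of the 13498 tiles were higher (1.40%, against 1.67% of all tiles) and 690 lower (5.11%, against 7.10%). Limma on logit levels also gave 0 calls, and with the prior spread fitted on tiles at 5 to 95%, or on the CpG-dense tiles below 10% alone, 3 or 7 tiles fell by 5 points or more and 0 rose by as much. All knockouts lay above all controls in 1736 of 13533 tiles (12.8%, against 11.2% of all tiles) and below in 3096 (22.9%, against 25.9% of all tiles). The median difference over the 13498 tiles was -0.0351 points, and over all tiles -0.326 points. Of the 13498, 136 were higher by 1 point or more and 930 lower by as much.

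The GMP tiles named by the rule are therefore not called. Higher in both knockouts were Fut4, a fucosyltransferase gene (controls 12.9% and 9.07%, knockouts 15.6% and 19.7%), Asap2 (9.22% and 5.85%, then 10.2% and 13.7%), Podxl2 (2.32% and 5.00%, then 5.43% and 7.82%) and Ubtf (3.58% and 7.30%, then 9.85% and 7.35%). Library 352 was at 14.9%, 5.77%, 10.3% and 7.48% in these tiles. In Ppp1r2, a phosphatase inhibitor gene (chromosome 16, 31275001 to 31276000, start tile), the GMP knockouts stood at 7.16% and 3.06%, and the other 9 libraries were between 0% and 0.223%. Its excess lay in 10 C positions over 51 bp that averaged 19.2% in 178 and 11.3% in 179 and at most 0.233% in any other library. Of the 5 GMP tiles above all others in difference, only Ppp1r2 began at a level near 0.

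Lower in both GMP knockouts were 2810410L24Rik (controls 10.3% and 13.8%, knockouts 2.03% and 1.96%), the shared start tile of Fam187b and Lsr (9.72% and 6.98%, then 2.18% and 2.05%), and Prdm16, a PR-domain factor gene (8.84% and 8.72%, then 1.39% and 4.26%). These 3 fell in LSK as well: 2810410L24Rik from a mean of 3.92% to 0.520% (adjusted p = 0.00698), Fam187b from 6.45% to 3.01% (0.0103) and Prdm16 from 2.82% to 0.827% (0.0203). Library 352 was at 0.341%, 1.85% and 0.486% in the 3 tiles, below both knockouts in each.

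Mrpl19, a mitochondrial ribosomal protein gene (chromosome 6, 81965001 to 81966000, 29 C positions), split the libraries without regard to genotype. It stood at 0.292% and 0.381% in LSK controls 1326 and 1330 but 9.30% in control 1331, and at 10.4% and 14.1% in LSK knockouts 1327 and 1333 but 0.236% in knockout 1334. In GMP the controls stood at 8.94% and 12.3%, the knockouts at 0.198% and 0.192%, and 352 at 7.78%. The same tile therefore gave the largest positive LSK difference of all 13498 tiles (5.64 points, adjusted p = 0.534) and the largest negative GMP difference (-10.4 points, adjusted p = 0.564). Its methylation lay in 12 positions over 146 bp, which averaged 18.9% to 32.2% in the 6 high libraries and at most 0.881% in the 5 low ones. Under a rule set after the data were seen (a gap of at least 3 points in the ranked levels, with 2 to 8 of the 10 assigned libraries on the lower side and all of those below 1%), Mrpl19 and Prdm11 were the only 2 of the 13498 tiles, and Prdm11 was the one whose split followed genotype in LSK.

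**Figure D4:**
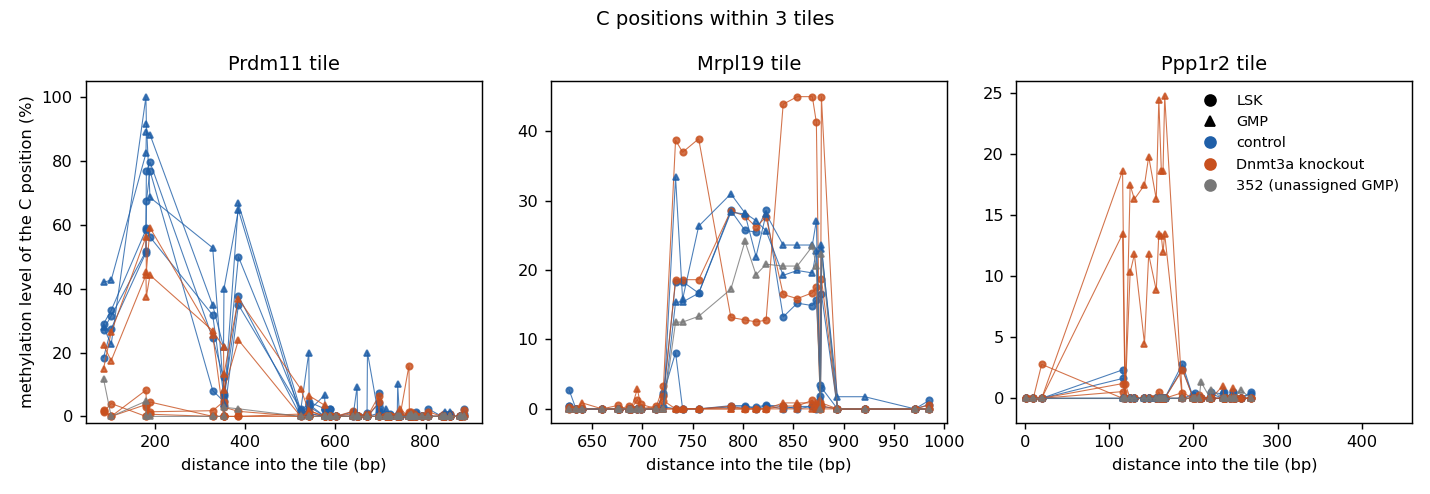
Methylation level (percent) of each C position against its distance into the tile (bp) for Prdm11, Mrpl19 and Ppp1r2, 1 line per library, with LSK libraries as circles and GMP libraries as triangles. In Prdm11 the LSK knockouts and 352 stay low, in Mrpl19 high and low libraries mix both genotypes, and in Ppp1r2 the GMP knockouts 178 and 179 alone are raised.

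A difference between cell types in the knockout effect was called in 0 of the 13498 tiles and in 0.00599% of all tiles (limma-moderated F test of the product term), with 501 of the 13498 at an unadjusted p under 0.05. Tiles that fell in LSK and were not called in GMP are therefore not shown to differ between the cell types.

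Tiles beside these fell too in LSK, as did tiles farther away. The 6213 tested tiles directly next to one averaged 14.4% ± 0.0843 (SD, n = 3) in LSK controls and 12.8% ± 0.344 in LSK knockouts, and 200 of them fell (3.22%) while 0 rose. At all levels the share was 6.27% at 2 tiles away, 4.85% at 3 to 5, 3.94% at 6 to 20 and 2.24% beyond, beside the 2.55% of all tiles. Adjacent tiles at 20 to 80% in GMP controls averaged 45.6% ± 0.392 and 38.5% ± 1.87, and 13.5% of these 775 tiles fell. In the same range of levels, the share that fell was 15.9% at 2 tiles away, 13.3% at 3 to 5, 12.0% at 6 to 20 and 7.71% beyond, so adjacent tiles did not have the highest share. Of the 150 tiles that fell, 126 had a tested neighbour and 20 of these (15.9%) had a neighbour that fell too, compared with 2.43% of the 10346 other tiles with a tested neighbour. The neighbours' median level in LSK controls differed as well, at 3.20% and 0.484%, and its part in these shares was not tested.

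Around 7709 protein-coding starts inside the tiles, the LSK groups stood apart on the flanks and overlapped at the start through library 1333. From 500 bp before to 500 bp after the start, levels in LSK were 0.582% ± 0.0114 (SD, n = 3) and 0.481% ± 0.0132 in controls and 0.556% ± 0.112 and 0.472% ± 0.107 in knockouts. In the 500 bp before the start knockout 1333 stood at 0.681%, above the controls (0.571% to 0.594%), and 1327 and 1334 at 0.520% and 0.466%, below them. In the 500 bp after it the order was the same, with 1333 at 0.593%, controls at 0.469% to 0.495%, and 1327 and 1334 at 0.429% and 0.394%. Between 500 and 1000 bp downstream the controls averaged 2.07% ± 0.0306 and the knockouts 1.76% ± 0.104, a relative difference of -14.6%. At 1000 to 1500 bp the values were 9.72% ± 0.0333 and 8.58% ± 0.212 (-11.8%), and at 1500 to 2000 bp 23.0% ± 0.0267 and 21.2% ± 0.311 (-7.82%). Upstream, at 500 to 1000 bp, controls averaged 3.33% ± 0.0173 and knockouts 2.93% ± 0.135 (-11.9%). In each of these 4 windows the groups did not overlap. GMP knockouts were lower than controls in the 500 bp on either side of the start as well, at 0.456% and 0.388% against 0.553% and 0.480%, where the groups did not overlap. The mitochondrial percentage differed by more between the same groups, at 0.956 and 1.09 in GMP controls and 0.141 and 0.189 in GMP knockouts. Its part in the GMP values at the start was not tested.

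**Figure D5:**
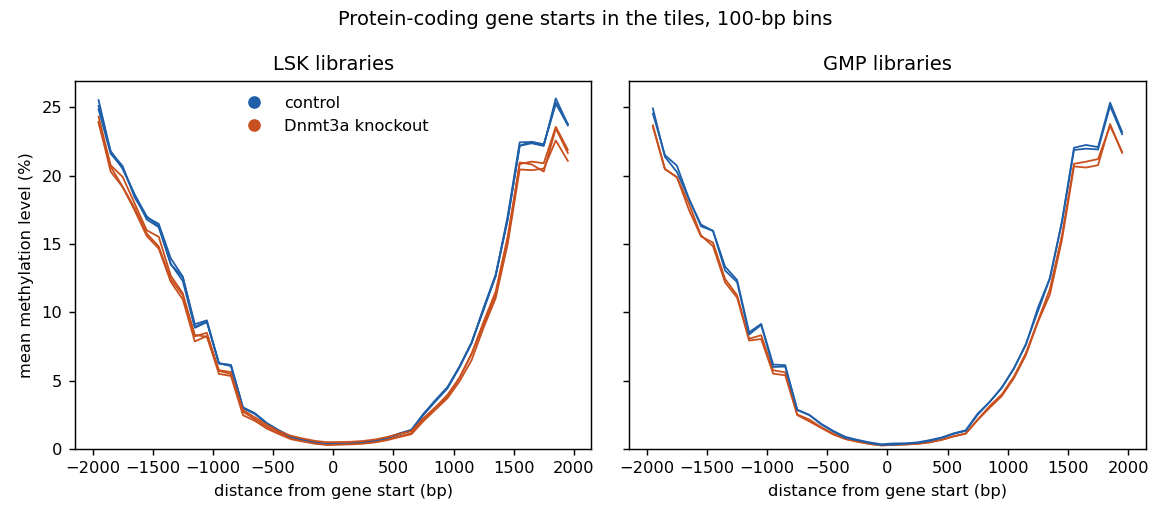
Mean methylation level (percent) in 100-bp bins against distance from 7709 protein-coding starts that lie in the tiles, 1 line per library. All libraries form a trough at the start, between 0.249% and 0.494% within 100 bp of it, with 1333 the highest, and the knockout lines run below the control lines on both flanks, for example at 21.2% against 23.0% in LSK from 1500 to 2000 bp downstream.

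Gene groups were taken from lists of known genes, and a gene counts where its start lies in one of the 13498 tiles. Developmental transcription factors, whose islands are classic Polycomb targets, had 40 of 81 genes there, in 45 tiles. None was called. Their median level was 1.36% in LSK controls, and the median difference was -0.27 points in LSK and -0.24 in GMP. In each cell type 31 of 45 tiles were lower, beside 48.7% of the 13498 tiles in LSK and 59.3% in GMP. The 13498 tiles had a lower level, with a median of 0.283% in LSK controls. The 1122 of them that averaged 1 to 2% in controls had median differences close to this list's, -0.247 points in LSK and -0.279 in GMP. The brachyury gene T stood at 4.82%, 5.35% and 6.11% in LSK controls and 2.79%, 2.60% and 3.65% in LSK knockouts (adjusted p = 0.135). Pax7 stood at 3.32%, 5.10% and 3.97% and at 2.41%, 2.05% and 1.96% (adjusted p = 0.103), and Barhl1 at 7.63%, 7.51% and 6.78% and at 4.14%, 6.05% and 6.38% (adjusted p = 0.343). The groups did not overlap in any of these 3 tiles. Wnt antagonists had 4 of 14 genes there, again with none called, a median level of 3.94% in LSK controls and median differences of -0.33 in LSK and -1.25 in GMP. Draxin stood at 5.72%, 6.48% and 7.17% in LSK controls and at 4.11%, 4.63% and 6.17% in knockouts.

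Blood transcription factors had 23 of 50 genes in 26 tiles, and 1 tile fell. Runx1 (chromosome 16, 92697001 to 92698000, 67 C positions) stood at 1.68%, 1.88% and 1.89% in LSK controls and at 0.920%, 0.442% and 0.601% in LSK knockouts, a fall of 1.16 points (adjusted p = 0.0264, limma-moderated F test). The call was lost in 4 of 6 cases when 1 library was left out. Cebpb, a myeloid regulator gene, stood at 4.32%, 4.33% and 3.82% and at 3.22%, 3.08% and 2.63% (adjusted p = 0.0987), and Irf8 at 3.0%, 3.81% and 3.44% and at 2.82%, 2.24% and 2.10% (0.371). The median difference over the 26 tiles was 0.03 points in LSK and -0.05 in GMP.

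The other lists began near 0 and had no call. Ribosomal protein genes (36 of 72), Polycomb and Trithorax genes (28 of 40), DNA methylation machinery (12 of 19), cell cycle inhibitors and tumour suppressors (14 of 30) and interferon response genes (7 of 30) had median levels of 0.177% to 0.214% in LSK controls and median LSK differences of 0.01 to 0.05 points. Tet3, which encodes an enzyme that oxidises methylcytosine, stood at 1.03%, 1.60% and 0.927% in LSK controls and at 0.492%, 0.446% and 0.339% in knockouts (adjusted p = 0.0873). The Polycomb gene Pcgf5 stood at 2.72%, 2.53% and 2.22% and at 1.30%, 1.91% and 0.750% (0.170), and Ezh2 at 0.374%, 0.573% and 0.734% and at 0.259%, 2.21% and 0.640%, with 1333 the high library (0.642). Over these 5 lists the differences ranged from -1.21 to 0.55 points in LSK, and the tumour suppressor starts, which are often examined for island methylation, stayed within -0.24 and 0.31 points.

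At the 10% limit, the 3 tiles just inside averaged 9.944% (Cbs), 9.937% (Fut4) and 9.927% (Bhlha9) in the 5 controls, and the 3 just outside, in Csmd2, Rab10os and Adam33, averaged 10.002% to 10.05%.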

How the data were processed

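Per the labels' protocols, DNA was cut with MspI, fragments of 150 to 400 bp were kept, and ERRBS libraries were read as 50 bp single ends. Bismark, mm10 and GRCm38 appear among the tools and builds of the submitters' processing notes; parameters are not given in the sources used here. The authors deposited, for each library, the read coverage count and the percent of C and of T reads at each C position of coverage 10 or more, and methylated counts were taken as the coverage count times the percent C. The depth per position sets the precision, and PCR reads without molecular identifiers are not independent molecules.

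Positions present in all 10 assigned libraries (1292873) were summed in tiles of 1000 bp with at least 3 of them on chromosomes 1 to 19 and X. Each cell type was fitted alone with a quasi-binomial model of 2 groups, dispersions were moderated with squeezeVar of limma 3.58.1 (R 4.3.3) and held at 1 or more, and p-values were adjusted by Benjamini-Hochberg over all 100136 tiles. A tile was called at an adjusted p under 0.05, counted with and without a difference of at least 5 points. The code, written in Python 3.11.15 with numpy 2.4.6, scipy 1.17.1 and pandas 2.3.3, was tested on simulated data. Genes named in a comparison were the 8 largest called changes in a direction, or, with none called, the 5 largest among tiles whose groups did not overlap, and up to 3 tiles of each gene list with the largest LSK difference. A tile that this rule names in GMP is not reported here. The tiles and gene lists were chosen with earlier results of these data known. Library 352 entered no comparison. Promoter sequences are from RefSeq, GRCm38.p6, and all 167212 listed positions that fell in them lay at a CG. Alternatives covered coverage, positions per tile, control level, the prior, the test, the minimum difference and each left-out library, and a split of LSK by chromosome Y positions that was added after seeing the data.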

Additional observations from a re-analysis of the deposited data

Results flagged for a closer look

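Library 352, which was placed in no group, reached a level in 3 of the tiles that no control library reached, and no explanation was tested. The rule held the mean of the controls below 10% and took no account of 352, so such a gap was favoured in advance. In tiles chosen by LSK controls alone, GMP controls 346 and 349 stood at 20% or more in 5 and 2 tiles. Knockouts 178 and 179 did so in 2 and 1, and 352 in 7. The start tile of Nkain1 (chromosome 4, 130574001 to 130575000, 38 C positions) stood at 26.1% in 352, against 4.87% to 14.0% in the 5 controls and up to 18.6% in knockout 178. The tile at 14622001 to 14623000 of chromosome 7, in the pseudogene Nlrp5-ps, stood at 24.4% in 352, between 4.78% and 5.56% in the 6 LSK libraries and between 11.03% and 16.3% in the 4 assigned GMP libraries. The next tile of Nlrp5-ps (14623001 to 14624000) stood at 22.1% in 352 and at most 18.5% in any assigned library. These 3 were the only tiles of 13313 above 20% in 352.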

How the results depend on the processing

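The count of tiles higher by 5 points in LSK was 0 under every alternative run. Without a minimum difference it was 7 with the prior fitted on CpG-dense tiles below 10%, and 1 or 2 without 1 of the knockouts. The count lower by 5 points in LSK (19) ranged from 9 to 26 when 1 library was left out, and was 3 with at least 40 C positions, 0 with a control mean below 5%, 5 with limma on logit levels, 0 with a minimum difference of 10 points and 150 with no minimum. Without a minimum, it was 24 with the prior fitted at 5 to 95%, 348 with that fitted on CpG-dense tiles below 10% and 8 on logit levels. Of the 150, 23 to 113 kept their call when 1 library was left out. All 150 stayed negative, which followed from the lack of overlap between the LSK groups in each of them. With a term for the chromosome Y split, added after seeing the data, 85 of the 150 kept their call. In GMP the count lower by 5 points (0) was 3 and 7 with those 2 priors and 0 with each library left out. With the first prior, Mrpl19, 2810410L24Rik and Fam187b were called in GMP and Runx1 lost its call in LSK. The median difference ranged from -0.0426 to 0.0267 points in LSK and from -0.0498 to -0.00546 in GMP when 1 library was left out. Fam43a, Ptprs, Tigd5 and Esr1 kept their calls in all 6 such fits. With 1 library left in an arm, that library is assumed to vary like the others. No paired analysis was possible because the groups compared share no replicate numbers.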

Other observations

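In the tiles that fell in LSK, library 352 stood lower than the GMP libraries of either genotype. Over 149 of the 150 tiles its median was 1.58%, against 4.66% and 4.90% in the GMP controls and 2.81% and 3.56% in the GMP knockouts. It lay below both controls in 135 tiles and below both knockouts in 110. At Fam43a, Gata2 and Esr1 it stood at 0.191%, 0.671% and 0.595%, where the GMP knockouts stood between 1.34% and 8.75%. No group was assigned from these values.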
